A study of Mus musculus with 4 samples.

Results

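The 100 RefSeq transcripts described here had their highest signal in PCBs, the cardioblasts that the chemical mixture CsAYTE induces from mouse embryonic stem cells, and lower signals in the other 3 populations measured beside them. They were chosen by a score, the log2 signal in PCBs minus the highest log2 signal among the other populations, and are the 100 highest scores among 16418 RefSeq mRNA names that were well above background in PCBs, out of 20846 such names on the array. Since the score chose them, the peak in PCBs is a description of the selection and has no test. RNA was measured on 1-colour Agilent arrays with 1 array per population, so there were no replicates, and every difference below is between individual RNA samples. Flk1+ MPCs, the mesodermal precursors, were taken at day 4.5. PCBs, formed with CsAYTE, and sfPCBs, which formed spontaneously without it, were both taken at day 5.5. M+CMs, the mature cardiomyocytes positive for αMHC, were taken at day 10.5 and in the study derive from PCBs. All 4 populations derived from embryonic stem cells differentiated without leukemia inhibitory factor, with DMSO as the vehicle of the controls, and the labels do not name the cell line. CsAYTE combines cyclosporin A with the kinase inhibitor Y27632, with Trolox, an antioxidant relative of vitamin E, and with EW7197, which blocks the TGF-beta receptor kinase ALK5. In the study's methods, sorted Flk1+ MPCs were plated on OP9 cells, a mouse stromal feeder line, or on gelatin. The study also reports that mouse PCBs did not form in culture without feeder cells. For comparisons of expression the study sorted its cells, with PCBs gated as positive for PDGFRα and negative for Flk1 and M+CMs by a GFP reporter of αMHC. The sources used here do not state these sorts for the arrays themselves.

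The labelled identities were checked against marker genes, on signals scaled to a common 75th percentile. Kdr, which encodes the Flk1 receptor, had a signal of 47509 in Flk1+ MPCs and between 942 and 4719 in the others. Pdgfra, whose receptor defines PCBs, had a signal of 9136 in PCBs, 7237 in Flk1+ MPCs, 3647 in sfPCBs and 918 in M+CMs. Tnnt2, the cardiac troponin T gene, was at 145595 in PCBs, 403180.4 in M+CMs, 3176 in sfPCBs and 150.2 in Flk1+ MPCs. Myh6, the αMHC gene, was at 112738 in M+CMs, 6157 in PCBs, 43.5 in sfPCBs and 40.6 in Flk1+ MPCs. Some markers of other lineages were detected. Afp, an endoderm gene, was at 376 in PCBs and 471 in sfPCBs and undetected in the others. Foxa2, also of endoderm, was at 32.8 in PCBs and highest in Flk1+ MPCs at 457. Cdh5, of endothelium, was at 987 in sfPCBs and undetected in PCBs. Of 24 genes listed for stromal feeder cells, 22 were well above background in PCBs and 23 in sfPCBs, and their summed signal was 282472 in PCBs, 461072 in sfPCBs, 37595 in M+CMs and 53743 in Flk1+ MPCs. Col6a1, Col6a2, Prrx1 and Ly6a were highest in PCBs among these genes, with signals of 10483 in PCBs, 5064 in sfPCBs, 1127 in M+CMs and 99.7 in Flk1+ MPCs for Col6a2, a collagen VI chain. In the other direction, the largest differences among the 22 were those of Lum and Dcn, which encode matrix proteoglycans, with signals of 8782 and 3794 in sfPCBs against 30.2 and 124 in PCBs. Postn, on the list but outside the 22, was at 12883 in sfPCBs and not well above background in PCBs. In RNA of a whole population, fewer cells of a type and less RNA per cell cannot be told apart.

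Cardioblasts are committed precursors that have left the early mesoderm and have begun to express contractile genes. The heart fields they come from are patterned by homeodomain, forkhead and MADS-box factors and by Wnt, Notch and FGF signals, and sarcomere genes are most active in the cardiomyocytes that follow. The members are given below by role, from secreted peptides and proteases through transcription factors and signals to lipid and inflammatory genes.

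Scores ran from 1.39 to 6.93 on the log2 scale, with a median of 1.88, which is a 3.69-fold higher signal in PCBs than in the next population. Among all 16418 names, PCBs were the highest population for 11.5%, were at least 2-fold above every other population for 1.15%, and at least 4-fold above for 0.256%, and 42 members passed the latter threshold on the signals as measured. The member just inside the threshold was Slc10a4 with a score of 1.39, after Olfr668 at 1.41 and Car3 at 1.41, and just outside were Hcar2 at 1.39, Ifi44l at 1.38 and Lrrc8b at 1.36. PCB signals of the members ran from 12.3 to 51140.2 with a median of 234, and 24 of the 100 were under a signal of 50, against 15.4% of all names tested. In 44 members all other populations were well above background, a share not taken over all names. In 30 no spot was so called in any other population, against 0.591% of all names, and Sst, with 2 of its 10 spots called in sfPCBs, is not among them. For these 30 the fold is given as a lower bound, set by the weakest signal that the scanner software called well above background on the array compared. Where the transcript's own signal there was higher, that signal was used, and the fold is then the measured ratio. The weakest called signal lay between 15.1 and 15.9 on the 4 arrays, so values under it have no firm size or order. The software's error of a score had a median of 0.23 on the log2 scale, of 0.20 where every population was detected and of 0.60 where no other was, an error of the spot measurement alone that leaves out any spread between cultures.

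**Figure D1:**
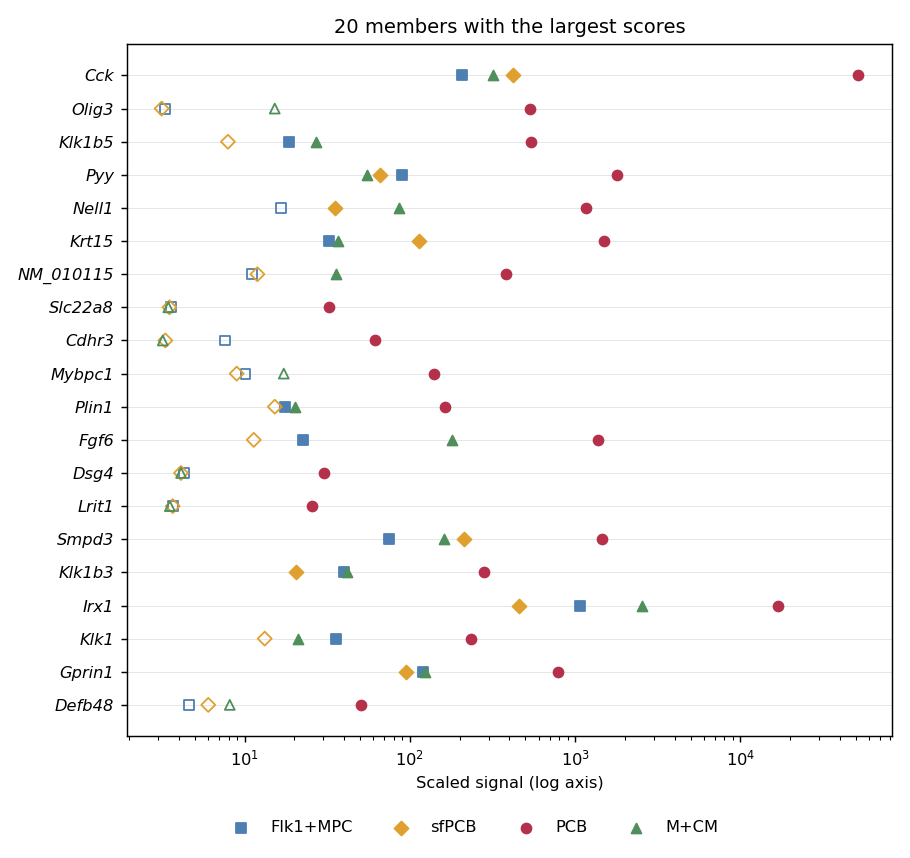
Scaled signal (log axis) of the 20 members with the largest scores in the 4 populations, 1 array each. Filled symbols were well above background and open symbols were not, and the PCB signal, from 25.6 in Lrit1 to 51140.2 in Cck, lies to the right of the others in every row because the score chose these transcripts.

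**Figure D2:**
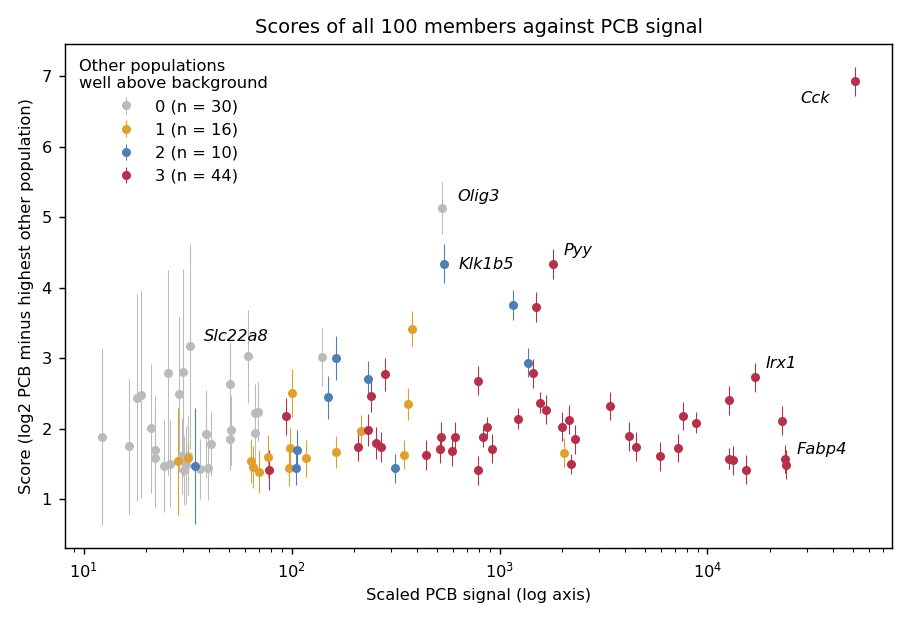
Score (log2) against scaled PCB signal (log axis) for all 100 members, with bars of 1 error from the scanner software, coloured by how many of the other populations had at least 1 spot well above background. Members detected nowhere else lie mostly at the left with long bars, and Cck stands apart at a score of 6.93.

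Peptide hormone genes held the largest score. Cck, which encodes cholecystokinin, a hormone of the gut and a neuropeptide, had scaled signals of 51140.2 in PCBs, 421 in sfPCBs, 319 in M+CMs and 208 in Flk1+ MPCs, a 122-fold difference between PCBs and sfPCBs. Pyy, which encodes peptide YY, an appetite-reducing gut hormone, had signals of 1798 in PCBs, 66.4 in sfPCBs, 55.0 in M+CMs and 89.3 in Flk1+ MPCs, and PCBs were 20.1-fold above the next population. Both were well above background in all 4 populations, and in each the 3 lower signals lay close together beside that of PCBs. Gip, the gene of an incretin hormone that promotes insulin release, had signals of 101 in PCBs, 13.8 in sfPCBs, 17.7 in M+CMs and 16.4 in Flk1+ MPCs. Its signal in PCBs was 5.67-fold that in M+CMs, and in Flk1+ MPCs and sfPCBs it was not well above background. Sst, which encodes somatostatin, an inhibitor of hormone release, was measured by 10 spots, of which 7 were kept in M+CMs, and had signals of 31.8 in PCBs, 9.72 in sfPCBs, 10.3 in M+CMs and 10.6 in Flk1+ MPCs, so that PCBs were at least 1.99-fold higher and only slightly above the detection limit, below which it lay elsewhere on most or all spots. These 4 were members among 17 genes of gut and neuropeptide hormones on the array, of which 11 were well above background in PCBs, and this family was assembled after the values were seen. Of the 11, these 4 alone were at least 2-fold above every other population as measured, against 1.15% of all names. Other genes of the family had other patterns. Ppy, the pancreatic polypeptide gene, had signals of 47.5 in PCBs, 17.8 in sfPCBs, 34.1 in M+CMs and 28.3 in Flk1+ MPCs. Sct, which encodes secretin, was highest in Flk1+ MPCs with signals of 866 in PCBs, 683 in sfPCBs, 275 in M+CMs and 2241 in Flk1+ MPCs.

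The 250 bases before the annotated start of a member gene were examined for short motifs in RefSeq sequence of build GRCm38.p6, which held 92 windows for 75 of the 95 member symbols and 32851 windows in all. The 4 hormone genes are shown because they include the largest score, with capitals marking CGTCA, the half-site of a cAMP response element (both strands), TTTAAA, or TATAA, the core of a TATA box (both strands). The stretches end at the base before the start, at chr9:121495695-121495814 (minus strand), chr16:23890845-23890964 (minus strand), chr11:102107833-102107912 (minus strand) and chr11:96024465-96024544 (plus strand).
Cck: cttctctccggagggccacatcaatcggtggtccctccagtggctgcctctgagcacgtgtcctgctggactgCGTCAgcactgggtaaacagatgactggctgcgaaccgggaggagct
Sst: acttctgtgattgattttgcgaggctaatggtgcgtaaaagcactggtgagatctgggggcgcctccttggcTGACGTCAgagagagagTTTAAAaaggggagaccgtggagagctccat
Pyy: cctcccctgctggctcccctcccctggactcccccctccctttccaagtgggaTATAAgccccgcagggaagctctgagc
Gip: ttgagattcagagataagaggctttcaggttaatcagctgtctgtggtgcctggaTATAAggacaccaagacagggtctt
In Cck only CGTCA and in Pyy and Gip only TATAA was marked. In Sst the CGTCA half-sites of the 2 strands overlap in the full palindrome TGACGTCA, and a TTTAAA follows. CGTCA was held by 17.8% of all windows and 13.0% of member windows, TATAA by 22.8% and 30.4%, and TTTAAA by 12.1% and 18.5%. Windows are counted here and below, not genes, and 1 gene can hold several. The 17 member windows with TTTAAA include those of 5 Klk1b genes, whose promoters resemble each other, so the windows are not independent. A match is a description of the letters, and no binding was measured.

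Kallikrein 1 family genes, which encode secreted serine proteases of the salivary gland and kidney, made up 6 members. Klk1b5 had scaled signals of 543 in PCBs, 7.93 in sfPCBs, 26.8 in M+CMs and 18.5 in Flk1+ MPCs, a 20.2-fold difference between PCBs and M+CMs. Klk1b3, the mouse gene known for the gamma subunit of nerve growth factor, had signals of 283 in PCBs, 20.5 in sfPCBs, 41.4 in M+CMs and 40.1 in Flk1+ MPCs. In Klk1, the tissue kallikrein gene, they were 234 in PCBs, 13.2 in sfPCBs, 21.1 in M+CMs and 35.8 in Flk1+ MPCs. The 3 genes were lowest in sfPCBs, where Klk1b5 and Klk1 were not well above background. Klk1b24 had signals of 241 in PCBs, 20.4 in sfPCBs, 43.7 in M+CMs and 41.3 in Flk1+ MPCs, and PCBs were 5.52-fold above M+CMs. Klk1b4, of the nerve growth factor alpha subunit, had signals of 98.2 in PCBs, 15.5 in sfPCBs, 29.7 in M+CMs and 19.96 in Flk1+ MPCs, a 3.31-fold difference from M+CMs, and was not well above background in sfPCBs or Flk1+ MPCs. Klk1b26 had a mean signal of 50.4 in PCBs, but its 2 probes disagreed: 1 had a PCB signal of 292 and the other was not well above background on any array. Of 14 family genes on the array, 9 were well above background in PCBs and 6 were at least 2-fold above every other population. Over all names this share was 1.15%, and the family was assembled after the values were seen. Klk1b8 and Klk1b22 were also highest in PCBs, with scores of 0.71 and 0.65, whereas Klk1b21 had close signals of 240.2 in PCBs, 227 in sfPCBs, 235 in M+CMs and 295 in Flk1+ MPCs. Leaving out spots with an outlying local background removed the only spot of Klk1b5 and of Klk1b24 from at least 1 array. The family genes are near copies of each other, so that a probe may also read a related transcript, which was not tested.

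Klk1b24, Klk1b3, Klk1b4, Klk1b5 and Klk1 follow each other without another protein-coding gene between them in the RefSeq gene order, and Klk1b26 lies 3 genes away. The promoters of 5 members are printed to show how alike they are, with TTTAAA in capitals, on the plus strand of GRCm38.p6. The stretches are chr7:44188156-44188235 (plus strand), chr7:44198111-44198190 (plus strand), chr7:44207353-44207432 (plus strand), chr7:44216394-44216473 (plus strand) and chr7:44012598-44012677 (plus strand).
Klk1b24: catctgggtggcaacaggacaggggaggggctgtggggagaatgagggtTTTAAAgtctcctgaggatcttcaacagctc
Klk1b3: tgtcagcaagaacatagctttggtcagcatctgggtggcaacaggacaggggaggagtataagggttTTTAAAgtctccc
Klk1b4: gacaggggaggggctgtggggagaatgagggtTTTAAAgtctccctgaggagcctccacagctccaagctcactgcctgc
Klk1b5: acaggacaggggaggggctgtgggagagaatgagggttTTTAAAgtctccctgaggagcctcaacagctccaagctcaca
Klk1b26: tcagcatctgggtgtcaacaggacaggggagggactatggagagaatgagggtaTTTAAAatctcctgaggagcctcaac
Each holds 1 TTTAAA, at different distances from the annotated start, and a TATAA in Klk1b3 was left in lower case. Over 250 bases, the 10 pairs among these genes had an identity between 64.4% and 87.5%, with Klk1b4 and Klk1b5 the most alike, and their identity with Klk1 was between 47.3% and 53.5%.

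**Figure D3:**
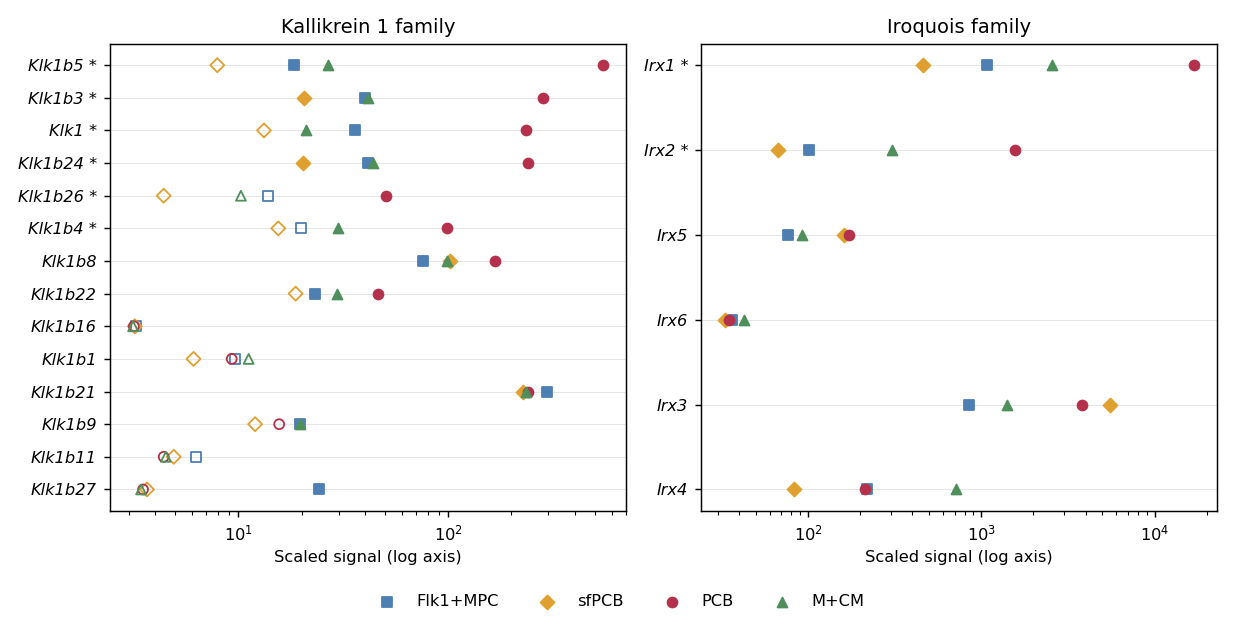
Scaled signal (log axis) of the 14 kallikrein 1 family genes and the 6 Iroquois genes in the 4 populations, 1 array each, with members marked by an asterisk and open symbols for signals not well above background. PCBs lie to the right of the others for the 6 and 2 members, while Klk1b21, Irx3 and Irx4 have no peak in PCBs.

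Transcription factor genes among the members included 2 neighbours of the Iroquois family. Irx1, a homeodomain factor known from patterning of the heart and other organs, had scaled signals of 16901 in PCBs, 459.7 in sfPCBs, 2552 in M+CMs and 1076 in Flk1+ MPCs. Irx2, its neighbour with no protein-coding gene between them, had signals of 1563 in PCBs, 67.1 in sfPCBs, 303 in M+CMs and 101 in Flk1+ MPCs. Both were lowest in sfPCBs and second highest in M+CMs, with PCBs 6.62-fold and 5.16-fold above M+CMs, and the 2 probes of Irx2 had scores of 2.19 and 2.55. The other 4 Iroquois genes differed from this pattern. Irx4, a ventricular factor, was highest in M+CMs at 715 against 213 in PCBs, and Irx3 was highest in sfPCBs at 5517 against 3814. Irx5 was at 172 in PCBs and 160.1 in sfPCBs.

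Olig3, a basic helix-loop-helix factor of the dorsal neural tube, had a signal of 532 in PCBs and was not well above background in any other population, which puts PCBs at least 33.4-fold higher. Nkx2-6, a homeodomain factor of the pharyngeal region and early heart, had signals of 918 in PCBs, 278 in sfPCBs, 89.9 in M+CMs and 117 in Flk1+ MPCs. Dbx2, a homeobox factor of the neural tube, had signals of 594 in PCBs, 134 in sfPCBs, 56.0 in M+CMs and 185 in Flk1+ MPCs. Klf2, a factor of endothelial shear response that was listed here with pluripotency, had signals of 13336 in PCBs, 4549 in sfPCBs, 2563 in M+CMs and 3055 in Flk1+ MPCs. Of 24 cardiac transcription factor genes listed, all were well above background in PCBs and none was a member. PCBs were highest for 8, against 11.5% of all names, and at least 2-fold above the others for 2, against 1.15%. The 2 were Foxc1, a forkhead factor of the second heart field, with a score of 1.32, and Mef2c, a MADS-box factor of muscle, with a score of 1.15 and signals of 1616 in PCBs, 201 in sfPCBs, 729 in M+CMs and 19.8 in Flk1+ MPCs. Isl1, the second heart field factor, was also highest in PCBs with signals of 7023 in PCBs, 1641 in sfPCBs, 4013 in M+CMs and 924 in Flk1+ MPCs, while Nkx2-5 was higher in M+CMs at 47780.2 than in PCBs at 9016.

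Secreted signals and receptors came from several pathways. Wnt2, a ligand of the second heart field, had scaled signals of 2151 in PCBs, 202 in sfPCBs, 492 in M+CMs and 287 in Flk1+ MPCs. Sfrp5, a secreted inhibitor of Wnt proteins, had signals of 7646 in PCBs, 188 in sfPCBs, 1683 in M+CMs and 288 in Flk1+ MPCs. Both were lowest in sfPCBs and PCBs were 4.37-fold and 4.54-fold above M+CMs. They were the only members among 21 Wnt genes well above background in PCBs, of 26 listed, whose median score was -2.64 against -0.59 for all names. Of the 21, these 2 alone were at least 2-fold above every other population, against 1.15% of all names. Wnt5a was highest in PCBs by a score of 0.09 alone, while the target gene Axin2 was highest in Flk1+ MPCs at 1069 against 129 in PCBs. Jag1, a Notch ligand, had signals of 5917 in PCBs, 1736 in sfPCBs, 1938 in M+CMs and 1900.4 in Flk1+ MPCs, the other 3 populations lying close together. It was the sole member among 15 Notch pathway genes detected in PCBs, and the target genes Hes1 and Hey1 were at 1360.2 and 1315 in PCBs against 4347 and 7427 in sfPCBs. Of the 15, Jag1 alone was at least 2-fold above every other population, against 1.15% of all names.

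Fgf6, a growth factor of muscle, had signals of 1374 in PCBs, 11.4 in sfPCBs, 179.8 in M+CMs and 22.4 in Flk1+ MPCs, a 7.64-fold difference between PCBs and M+CMs, and was not well above background in sfPCBs. Ephb1, an ephrin receptor, had signals of 7230.3 in PCBs, 209 in sfPCBs, 2181 in M+CMs and 113 in Flk1+ MPCs. Robo2, a Slit receptor, had signals of 1226 in PCBs, 216 in sfPCBs, 277 in M+CMs and 11.7 in Flk1+ MPCs, with 1 of its 2 probes not well above background in Flk1+ MPCs. In these 3 genes M+CMs were next to PCBs. Cnr1, the cannabinoid receptor gene, had signals of 2007 in PCBs, 409 in sfPCBs, 294 in M+CMs and 491 in Flk1+ MPCs. Il17re, a chain of an interleukin-17 receptor, had signals of 269.5 in PCBs, 76.5 in sfPCBs, 68.3 in M+CMs and 80.4 in Flk1+ MPCs. The cytokine gene Il17b had signals of 77.6 in PCBs, 20.9 in sfPCBs, 28.9 in M+CMs and 19.5 in Flk1+ MPCs. The lactate receptor gene Hcar1 and the adenosine receptor gene Adora3 were near the detection limit, with PCB signals of 28.5 and 26.0. Against Flk1+ MPCs, where neither was well above background, PCBs were at least 1.79-fold and 1.63-fold higher. The Hcar1 value is the mean of 2 probes, of which 1 was not well above background on any array. Its other probe had signals of 44.1 in PCBs and 21.3 in sfPCBs, where it was well above background. Tmigd3, which is adjacent to Adora3, had signals of 234 in PCBs, 34.6 in sfPCBs, 59.1 in M+CMs and 25.9 in Flk1+ MPCs.

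Adipocyte genes gave 5 members, the most of any of 36 gene lists, 31 of which held none. The lists were chosen with earlier results of these data known. The adipocyte list had 16 genes, 15 of them well above background in PCBs. Of these, 5 were at least 2-fold above every other population, against 1.15% of all names. The median score of the list was -0.14, against -0.59 for all names. Plin1, which coats the lipid droplet of adipocytes, had scaled signals of 163 in PCBs, 15.2 in sfPCBs, 20.3 in M+CMs and 17.5 in Flk1+ MPCs, an 8.03-fold difference from M+CMs, and was not well above background in sfPCBs. Cebpa, a leucine zipper factor of adipocyte and liver differentiation, had signals of 1679 in PCBs, 348 in sfPCBs, 90.1 in M+CMs and 17.8 in Flk1+ MPCs, with PCBs 4.83-fold above sfPCBs. Adipoq, the adiponectin hormone gene, had signals of 254 in PCBs, 24.9 in sfPCBs, 72.9 in M+CMs and 40.2 in Flk1+ MPCs. Plin1 and Adipoq were lowest in sfPCBs, whereas Cebpa was second highest there. Fabp4, a fatty acid carrier of adipocytes and capillaries, had signals of 23663 in PCBs, 7958 in sfPCBs, 384 in M+CMs and 102 in Flk1+ MPCs. Plin4, another lipid droplet protein, had signals of 15250.2 in PCBs, 5703 in sfPCBs, 99.8 in M+CMs and 99.8 in Flk1+ MPCs. Both were high in the day 5.5 populations, and PCBs were 2.97-fold and 2.67-fold above sfPCBs. Cidec and Cfd were highest in PCBs with scores of 0.92 and 0.57. Pparg, the receptor that directs adipocyte differentiation, was at 5255 in sfPCBs and 4613 in PCBs, the leptin gene Lep was not above background on any array, and Lpl and Slc2a4 were highest in M+CMs. The summed signal of the list was 75374 in PCBs, 43728 in sfPCBs, 45893 in M+CMs and 13943 in Flk1+ MPCs. This sum includes the 5 members, which were chosen for a high PCB signal, so its order in part describes the choice. Fabp4 and Plin4 alone gave 23663 and 15250.2 of it in PCBs. The summed signal of the stromal list, which held no member, was higher in sfPCBs than in PCBs, as given above. The part of feeder RNA in these values was not tested.

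Several further members act in lipid or liver metabolism. Gpd1, the cytosolic glycerol-3-phosphate dehydrogenase, had signals of 4203 in PCBs, 1131 in sfPCBs, 632 in M+CMs and 474 in Flk1+ MPCs. Hp, which encodes the haemoglobin scavenger haptoglobin, had signals of 2317 in PCBs, 641 in sfPCBs, 59.8 in M+CMs and 43.0 in Flk1+ MPCs. Mgst1, a membrane glutathione transferase, had signals of 12665 in PCBs, 4239.8 in sfPCBs, 1507 in M+CMs and 47.2 in Flk1+ MPCs and its 2 probes had scores of 1.52 and 1.64. In these, sfPCBs were next to PCBs. Aoc3, an amine oxidase of adipocytes and smooth muscle, had signals of 444 in PCBs, 143 in sfPCBs, 35.7 in M+CMs and 126 in Flk1+ MPCs. Car3, a carbonic anhydrase of muscle and fat, had signals of 789 in PCBs, 205 in sfPCBs, 110.2 in M+CMs and 296 in Flk1+ MPCs. The second highest signal was that of sfPCBs for Aoc3 and of Flk1+ MPCs for Car3. Ftcd, an enzyme of histidine breakdown, had signals of 346 in PCBs, 5.996 in sfPCBs, 111 in M+CMs and 11.7 in Flk1+ MPCs, and was well above background in PCBs and M+CMs alone.

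Promoters of Cebpa, Adipoq and Plin1 are printed with CCAAT, TTGCNNAA (a C/EBP site) and TATAA in capitals, on either strand, since Cebpa encodes a C/EBP factor. They lie at chr7:35119173-35119292 (plus strand), chr16:23146416-23146535 (plus strand) and chr7:79732777-79732896 (minus strand).
Cebpa: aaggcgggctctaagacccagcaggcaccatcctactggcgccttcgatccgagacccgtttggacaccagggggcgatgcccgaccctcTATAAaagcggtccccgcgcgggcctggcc
Adipoq: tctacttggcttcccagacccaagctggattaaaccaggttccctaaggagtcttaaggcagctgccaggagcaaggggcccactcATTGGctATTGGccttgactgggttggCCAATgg
Plin1: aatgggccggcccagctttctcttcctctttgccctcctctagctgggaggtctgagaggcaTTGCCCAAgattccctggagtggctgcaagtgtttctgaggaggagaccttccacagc
In the stretches shown, Cebpa holds a TATAA, Adipoq holds 3 CCAAT boxes on the 2 strands together, and Plin1 holds a TTGCNNAA match. TTGCNNAA was held by 9.56% of all windows and 14.1% of member windows, and CCAAT by 33.8% and 38.0%.

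Inflammatory and interferon-related genes were grouped after their values were seen, and sfPCBs were the next population in 10 of these 10, against 44 of all 100 members. The cytokine gene Il17b, next highest in M+CMs, and the receptor gene Il17re, next highest in Flk1+ MPCs, were placed with the signals instead. The count therefore depends on which genes were grouped here and is not a result about inflammatory members. This order is not firm for Ifi213, whose sfPCB signal of 4.92 was not well above background. Nor is it firm for Cxcl9, as 1 of its probes was highest in M+CMs and the other was undetected in sfPCBs. Il6, the gene of the cytokine interleukin 6, had scaled signals of 2038 in PCBs, 643 in sfPCBs, 3.33 in M+CMs and 3.51 in Flk1+ MPCs. It was not well above background in Flk1+ MPCs or M+CMs, and PCBs were 3.17-fold above sfPCBs. Saa3, an acute phase protein, had signals of 364 in PCBs, 71.3 in sfPCBs, 4.10 in M+CMs and 4.29 in Flk1+ MPCs, and the same populations were not above background. Cxcl9, a chemokine induced by interferon, had a mean PCB signal of 94.0, and its 2 probes disagreed, with scores of 3.11 and -0.06. Il6 and Saa3 were the only members among 18 listed cytokine and chemokine genes detected in PCBs. PCBs were highest for 7 of the 18, against 11.5% of all names, and at least 2-fold above the others for 2, against 1.15%. Cxcl10, Cxcl5 and Ccl5 had scores of 0.76, 0.74 and 0.60. Ccl2 was higher in sfPCBs, at 20588 against 14457 in PCBs. The summed signal of the list was 68547 in PCBs, 69850.1 in sfPCBs, 775 in M+CMs and 713 in Flk1+ MPCs, so that both day 5.5 populations were high and close to each other.

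Gbp5, a guanylate-binding protein of host defence, had signals of 524 in PCBs, 141 in sfPCBs, 52.4 in M+CMs and 57.7 in Flk1+ MPCs. Gm4841, related to interferon-inducible GTPases, had signals of 215 in PCBs, 55.0 in sfPCBs, 3.26 in M+CMs and 3.37 in Flk1+ MPCs. Its neighbour F830016B08Rik, of the same kind, had signals of 164 in PCBs, 51.4 in sfPCBs, 7.97 in M+CMs and 4.28 in Flk1+ MPCs. Neither was well above background in M+CMs or Flk1+ MPCs, and the same held for Casp1. Casp1, the protease that processes interleukin 1, had signals of 117 in PCBs, 39.1 in sfPCBs, 14.4 in M+CMs and 3.74 in Flk1+ MPCs. In each of these sfPCBs came second, with the other populations lower still. Clec2d, a lectin ligand of natural killer receptors, had signals of 313 in PCBs, 115 in sfPCBs, 18.7 in M+CMs and 3.21 in Flk1+ MPCs, and was not well above background in Flk1+ MPCs. The apolipoprotein L gene Apol6 had signals of 97.5 in PCBs, 35.8 in sfPCBs, 16.7 in M+CMs and 14.2 in Flk1+ MPCs, and was detected only in the day 5.5 populations. Ifi213, an interferon-inducible gene, was barely detected in PCBs at 16.6 and nowhere else. In 9 of the 10 genes sfPCBs were at least 2-fold above Flk1+ MPCs, against 32 of the 100 members and 14.7% of all names, with Cxcl9 counted by the mean of its probes. This count too depends on which genes were grouped. Of 16 listed interferon-stimulated genes, none was a member. PCBs were highest for 8, against 11.5% of all names, and at least 2-fold above the others for 2, against 1.15%. The 2 were Irf7, a factor of the interferon response, with a score of 1.15 and signals of 3115 in PCBs, 1407 in sfPCBs, 48.6 in M+CMs and 22.1 in Flk1+ MPCs, and Oasl1 with a score of 1.07. The stromal feeder list was high in the same populations, and its part in these values was not tested.

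**Figure D4:**
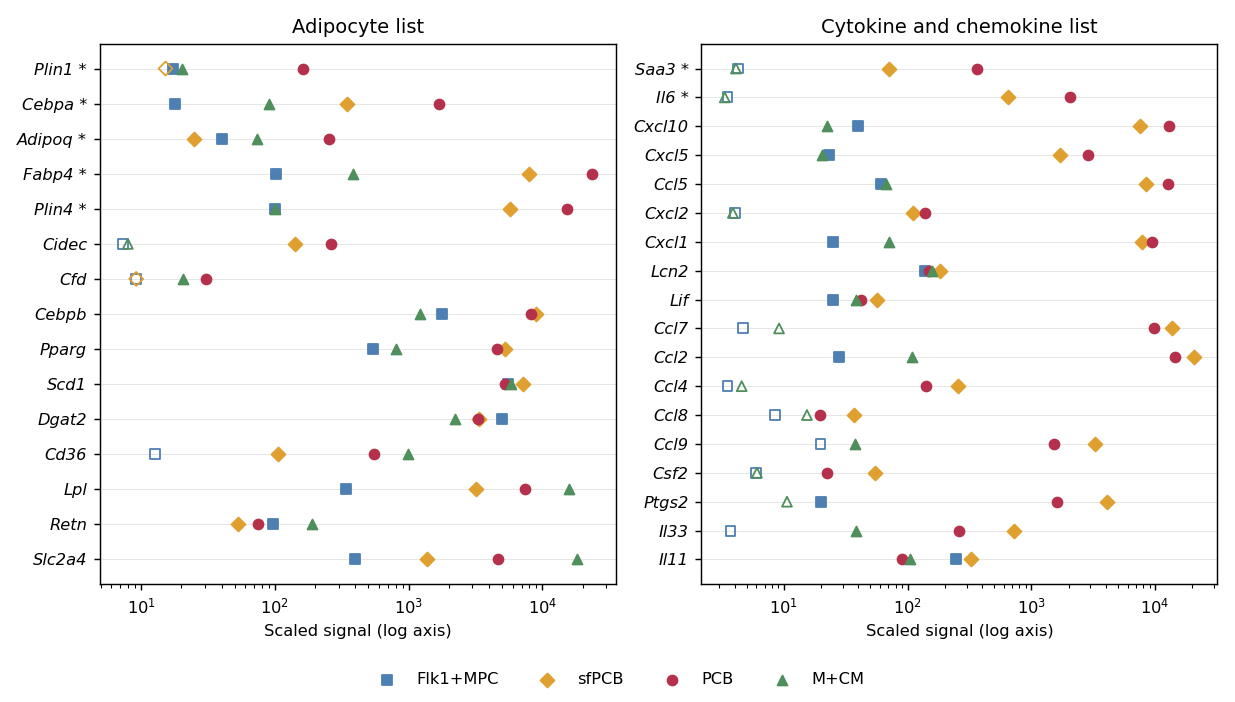
Scaled signal (log axis) of the 15 adipocyte and 18 cytokine and chemokine genes that were well above background in PCBs, in the 4 populations with 1 array each. Members carry an asterisk and open symbols were not well above background. PCBs and sfPCBs lie together at the right for most cytokines, and the 5 and 2 members are those where PCBs lead most.

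Il6 is shown with CGTCA, TTGCNNAA and GGNNTTTCC (letters of an NF-kB site), searched on both strands, in capitals, since its promoter is a known meeting point of such sites. The stretch is chr5:30012934-30013113 (plus strand).
Il6: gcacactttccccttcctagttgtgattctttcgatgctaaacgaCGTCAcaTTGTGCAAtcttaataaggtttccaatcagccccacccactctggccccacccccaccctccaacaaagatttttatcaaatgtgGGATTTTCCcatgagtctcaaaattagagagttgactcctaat
From its start outward, the match to the NF-kB letters comes before those to C/EBP and the half-site. GGNNTTTCC was held by 4.93% of all windows and by 8 of the 92 member windows. TTTCNNTTT, letters found in interferon response elements, searched on both strands, was held by 9.37% of all windows and by 9 member windows.

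The remaining members were of many kinds, and 44 lay in none of the groups above or among the keratins and chemosensory receptors below, a count that includes Tmigd3 and Ftcd. Nell1, a secreted factor of bone and cartilage growth, had scaled signals of 1163 in PCBs, 35.2 in sfPCBs, 86.0 in M+CMs and 16.5 in Flk1+ MPCs, a 13.5-fold difference from M+CMs. Smpd3, a neutral sphingomyelinase, had signals of 1456 in PCBs, 211 in sfPCBs, 160.5 in M+CMs and 74.5 in Flk1+ MPCs. In both, Flk1+ MPCs had the lowest signal, which for Nell1 was not well above background. Zar1, known from the egg-to-embryo transition, had signals of 12666 in PCBs, 2389.8 in sfPCBs, 1040.4 in M+CMs and 91.7 in Flk1+ MPCs. Nfxl1, its neighbouring gene and a zinc finger protein, had signals of 8782 in PCBs, 2066 in sfPCBs, 572 in M+CMs and 1233 in Flk1+ MPCs, and both were next highest in sfPCBs. Cdh6, a cadherin of the kidney and neural crest, had signals of 3388 in PCBs, 677 in sfPCBs, 417 in M+CMs and 526 in Flk1+ MPCs. Mpped2, a metallophosphoesterase, had signals of 22895 in PCBs, 5017 in sfPCBs, 5292 in M+CMs and 2319 in Flk1+ MPCs. Efs, an adaptor of Src kinases, had signals of 23823 in PCBs, 8465 in sfPCBs, 2478 in M+CMs and 7340.3 in Flk1+ MPCs. Gprin1, a neurite growth protein, had signals of 789 in PCBs, 95.1 in sfPCBs, 123 in M+CMs and 120.1 in Flk1+ MPCs.

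Mybpc1, which encodes slow myosin-binding protein C, was a member by 2 RefSeq names. The name NM_001252372 had signals of 515 in PCBs, 129 in sfPCBs, 153 in M+CMs and 157 in Flk1+ MPCs. NM_175418 had a PCB signal of 139.8 and was not well above background elsewhere. PCBs were 8.10-fold above its M+CM signal of 17.3, with a software error of 0.41 on the log2 scale. That M+CM signal lay above the weakest called signal, so the fold is the measured ratio and not a firm lower bound. No gene of the sarcomere list was a member: 28 were detected in PCBs, 1 was highest there and their median score was -2.38. The phosphatase gene Dusp18 had signals of 829.7 in PCBs, 194 in sfPCBs, 225 in M+CMs and 218 in Flk1+ MPCs. The ADP-ribosyltransferase gene Art5 had signals of 867 in PCBs, 202 in sfPCBs, 60.3 in M+CMs and 214 in Flk1+ MPCs. In the sorting adaptor gene Ap1s2 they were 2206 in PCBs, 459.7 in sfPCBs, 759 in M+CMs and 779.8 in Flk1+ MPCs. PCBs were between 2.83-fold and 4.06-fold above the next population in these 3. Signals of the pentraxin gene Nptx2 were 208 in PCBs, 18.3 in sfPCBs, 62.0 in M+CMs and 38.1 in Flk1+ MPCs. Ccdc160 had signals of 613 in PCBs, 122 in sfPCBs, 166 in M+CMs and 82.2 in Flk1+ MPCs. Of 4 members without a symbol in the reference used, NM_001024147 had signals of 4530.2 in PCBs, 1352 in sfPCBs, 107 in M+CMs and 52.9 in Flk1+ MPCs. NM_010115 had signals of 380.0 in PCBs, 11.9 in sfPCBs, 35.6 in M+CMs and 11.1 in Flk1+ MPCs, and was well above background in PCBs and M+CMs alone. The other two, NM_001177351 and NM_001033416, had PCB signals of 77.4 and 105.

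Members detected in PCBs alone had low signals. Beside Olig3 and NM_175418 of Mybpc1, the others had PCB signals of at most 69.1. The bound on the fold reached 2-fold in 14 of the 30 and 8-fold in 2, with NM_175418 counted by its measured ratio. Next by score after Olig3 were the organic anion transporter gene Slc22a8, with a PCB signal of 32.3 and a score of 3.17 ± 1.45 (software error), which as a bound is at least 2.03-fold, and the cadherin-related gene Cdhr3, at 61.9 and at least 3.88-fold. Stac, Csta3, Ces2g, Ccdc62 and Defb48 had bounds of 4.33-fold, 4.19-fold, 3.21-fold, 3.82-fold and 3.16-fold, of which that of Ccdc62 is its measured ratio to M+CMs. Ear2 and Hbb-bt, an eosinophil ribonuclease and an adult beta globin gene, had bounds of 2.44-fold and 2.50-fold. Bounds under 2-fold were those of Dsg4, Lrit1, Lrfn2, Gcnt7, Pramel5, Slc14a2, Arpp21, Acp4 and Aspa, among others. Other RefSeq names of the same genes, well above background in all populations, had scores of -0.28 and 0.05 for Arpp21 and -0.82 for Slc14a2.

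Olfr243, Olfr1361, Olfr1199, Olfr668 and Vmn2r46, receptors of odorants and pheromones, were members with PCB signals from 12.3 to 40.8. They were 5 of 289 such receptor genes well above background in PCBs, of 1318 on the array, and none of the 5 was detected in another population. Of the 289, 10 were at least 2-fold above every other population as measured, against 1.15% of all names. Olfr243 had 2 probes, of which 1 was not above background anywhere, and no fold can be given for it. Of 103 keratin and keratin-associated genes, 62 were detected in PCBs, and Krt15, Krt32 and Krtap17-1 were members, with PCB signals of 29.8 and 22.0 for the latter pair. Of the 62, these 3 alone were at least 2-fold above every other population as measured, against 1.15% of all names. Krt15, a keratin of basal epithelium, had signals of 1496 in PCBs, 113 in sfPCBs, 36.7 in M+CMs and 32.6 in Flk1+ MPCs, with PCBs 13.3-fold above sfPCBs. Lrrc66, Plekhs1, Slc22a20, Slc10a4 and Tcerg1l, detected in at least 1 other population, had PCB signals of 107, 64.1, 65.6, 69.8 and 34.3, and the probes of Tcerg1l differed, with 1 not above background.

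The score used the highest of the other 3 populations, but did not fix which of them it was. After PCBs, sfPCBs were highest in 44 members, M+CMs in 34 and Flk1+ MPCs in 22, and among all names these shares were 22.3%, 39.2% and 38.5%. PCBs were the highest population for only 11.5% of all names, so these shares are not those of names chosen in the same way. The difference from them cannot be read as a trait of the members. The count for Flk1+ MPCs was 14 without scaling and 41 with a floor at the weakest detected signal. The 22 with Flk1+ MPCs next were mostly dim, with a median PCB signal of 56.1, and only 10 of them were well above background in Flk1+ MPCs. Setting sfPCBs against Flk1+ MPCs, 32 members were higher by at least 2-fold and 13 lower, against 14.7% and 10.6% of all names. M+CMs were at least 2-fold above Flk1+ MPCs in 26 members and below in 12, against 21.9% and 21.8% of all names. Between M+CMs and sfPCBs, 21 members were higher in M+CMs and 32 in sfPCBs, against 20.6% each way. These counts depended on the processing of dim signals: with normexp and quantile normalization or an offset of 50, only 13 and 14 members were higher by that much in sfPCBs and 11 and 13 in M+CMs, each against Flk1+ MPCs. Many of the values compared here were not well above background, being 48 of 100 members in Flk1+ MPCs, 41 in sfPCBs and 44 in M+CMs. The same shares were not taken over all names. By the selection, every member had a measured PCB signal over 2-fold that of each other population, but with undetected populations at their bound this held for 82 of the 100. As measured, it held over all names for 14.9% against Flk1+ MPCs, 6.3% against sfPCBs and 18.1% against M+CMs. PCBs were at least 8-fold above Flk1+ MPCs in 48 members, above M+CMs in 44 and above sfPCBs in 31 on the signals as measured, where the shares of all names were 4.58%, 4.43% and 0.981%. The rule used these contrasts, so the counts describe the choice of members.

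In the RefSeq gene order, 10 pairs of members were adjacent protein-coding genes, and they involved 17 genes. Besides kallikrein and Irx pairs these included Gm4841 with F830016B08Rik, Tmigd3 with Adora3, Nfxl1 with Zar1, and Stac with Arpp21. Of the latter, Arpp21 and Adora3 were near the detection limit. Chromosome 7 held 17 member genes, the most of any chromosome, and 6 of these were the kallikreins. The same counts were not taken over all names on the array, so neither the pairs nor the chromosome count show clustering of the members.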

How the data were processed

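RNA of 4 mouse cell populations was read on 1-colour Agilent arrays, 1 array per population, all on 1 slide, so no test was run and the number of arrays limits the precision. The authors deposited scanner intensity values from Feature Extraction 11.5.1.1, whose processed signal has the background subtracted and which were not normalized between arrays. The header names mouse build mm9. They also deposited log2 values per probe, which equal the log2 mean processed signal without scaling and served as an alternative.

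Spots were dropped when they were controls, non-uniform, outliers among their repeats or marked by hand. Signals were multiplied to bring the 75th percentile of every array to 2198.4, the mean over the arrays, and log2 values were averaged over the spots of each RefSeq mRNA name. A name was well above background where at least 0.5 of its spots were so called by the software, and undetected, for bounds and for counts of members detected in PCBs alone, where none was. The score is the PCB value minus the highest other value, and the top 100 were taken, leaving out 1 name that is not reported here, as is 1 of the 100. The members and the gene lists were chosen with earlier results of these data known, and role groups were drawn up after the values were seen. Named were the 20 highest scores, members in a list or sharing a gene with another member, the 3 names on each side of the threshold, and the listed genes with the highest scores. Gene symbols came from RefSeq accessions of GRCm38.p6, which matched 20503 of 20846 names, and gene order was taken from the same table without its coordinates, since the arrays are annotated on another build. Promoter sequences are from RefSeq on GRCm38.p6. The motifs were chosen after the sequences were read, and identity was counted over a global alignment.

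A fold against a population not well above background is a lower bound, set by the higher of the lowest signal called well above background on that array and the transcript's own signal. Where the transcript's own signal was the higher, the fold is the measured ratio and not a firm bound. Scaling and scoring were tested on simulated arrays with known peaks. Every simulated spot counted as detected and peaks were placed in brighter names only, so dim or undetected signals were not covered. Well above background were between 73.3% and 76.2% of the spots of an array. Among probes spotted 10 times, the median SD on the log2 scale was between 0.054 and 0.096, and under a signal of 50 between 0.21 and 0.29. The tools were limma 3.58.1 in R 4.3.3, for normexp and quantile normalization, and numpy 2.4.6, pandas 2.3.3 and matplotlib 3.10.9 in Python 3.11.15. Alternatives covered normalization, offset, floor, detection, averaging and spot flags.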

Additional observations from a re-analysis of the deposited data

How the results depend on the processing

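No paired analysis was possible because each population had 1 array and no test was run, and for the same reason no replicate could be left out. Every member kept a positive score under every alternative that could score it, except Cxcl9, which had a score of -0.064 with its brightest probe alone. With normexp and quantile normalization, 58 members were in the top 100 and 58 were at least 2-fold above every other population, with a median score of 1.12, and with an offset of 50 these values were 59, 59 and 1.32. Over all names, 93 and 99 were then at least 2-fold above, against 189. Against Flk1+ MPCs, 13 and 14 members were then at least 2-fold higher in sfPCBs, and 11 and 13 in M+CMs. Both settings shrink differences between dim signals by construction. Detection on all arrays could score 44 members by construction, all in the top 100 and all at least 2-fold above, among 93 such names, with Flk1+ MPCs next in 8, sfPCBs in 19 and M+CMs in 17, and, against Flk1+ MPCs, 16 higher in sfPCBs and 14 in M+CMs. The count with Flk1+ MPCs next was 14 without scaling and with the authors' log2 values, 41 with the floor, and 12 among the 76 members with a PCB signal of at least 50. The weakest called signal was highest in Flk1+ MPCs, at 15.9, and lowest in sfPCBs, at 15.1. Scaling raised the signals of Flk1+ MPCs and lowered those of sfPCBs. How far these settings alone moved the counts was not tested. sfPCBs were next in 59 without scaling and in 32 with the floor. No spot was saturated. Leaving out spots with an outlying local background, an alternative chosen after seeing the data like the signal minimum of 50 and the averaging of probes first, left 9 members with no spot on some array (Klk1b5, Klk1b24, Slc22a8, Dbx2, Efs, Acp4, Olfr1199, Olfr668 and NM_001024147) and 87 members in the top 100. Under each of 13 alternatives other than detection on all arrays, 49 members stayed in the top 100, among them Cck, Olig3, Pyy, Irx1, Irx2, Klk1, Klk1b3, Plin1, Cebpa, Adipoq, Fabp4, Il6, Saa3, Wnt2 and Sfrp5. Members with PCB signals near the detection limit, 24 of them under 50, have no firm fold.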

Other observations

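Among 7811 names of other kinds well above background in PCBs, such as predicted transcripts and probes without a RefSeq mRNA name, 87 (1.11%) were at least 2-fold above every other population, and 49 had a score at or above the lowest score of the members. This share lay beside the 1.15% found among the RefSeq mRNA names. The highest of them were dim, with PCB signals of 50.5 for XR_141208 and 53.4 for AK010164, and no gene symbol was matched to either.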
